A study of Drosophila melanogaster with 2 samples.

Results

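The chromatin immunoprecipitation (ChIP-seq) peaks of l(3)neo38-GFP that lie deep inside introns, far from any transcript start, are described here. Of the 3953 peaks in the authors' thresholded list, 1053 or 26.6% (95% exact interval 25.3 to 28.0) were distal intronic summits. A summit is the position within each peak that the authors gave as its top. It was kept when it lay more than 2000 bp from every annotated transcript start, inside at least 1 gene body and in no annotated exon. Position alone chose these summits, and the rule did not use their signal, their sequence or which genes host them. The position class, the 41 motifs and the 23 gene lists used below were, however, chosen with earlier results of these data known. The data come from 2 biological replicates of 1 group: mixed-sex whole Drosophila melanogaster embryos aged 0 to 24 h. They belong to a transgenic line that stably expresses l(3)neo38 with GFP fused at its C-terminal end, and an anti-GFP antibody was used for the precipitation. Whole embryos of this age range pool all embryonic stages and tissues, and the fusion protein is detected, not the untagged one. Untagged embryos and other conditions were not analysed here.

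l(3)neo38 encodes a protein with C2H2 zinc fingers, a DNA-binding fold common among fly transcription factors. Introns far from a promoter can hold enhancers, stretches of DNA that transcription factors bind and that act on a promoter at a distance. In flies, regulators of development often have long introns with many such elements, and an enhancer may serve its host gene or a neighbour. A peak in an intron therefore marks a place of recovered chromatin and does not by itself name a target gene.

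Sequence was read from 50 bp before to 50 bp after each summit, a window of 101 bp. Each window was compared with an equally wide flank window whose centre was 350 bp away. The windows printed here are from among the strongest distal intronic summits, in 3 kinds, because their letters show what the summits have in common and where they differ. All are from the RefSeq Release 6 genome (build dm6), plus strand, 5′ to 3′. The first 6 hold a C-rich stretch, meaning 8 bases of which at least 7 are C on either strand, and capitals mark each such stretch.
CG33158: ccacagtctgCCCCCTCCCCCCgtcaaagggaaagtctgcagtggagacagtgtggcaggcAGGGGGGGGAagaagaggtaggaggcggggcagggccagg
CG3638: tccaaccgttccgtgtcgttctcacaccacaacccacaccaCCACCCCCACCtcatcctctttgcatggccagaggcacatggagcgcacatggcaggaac
nmo: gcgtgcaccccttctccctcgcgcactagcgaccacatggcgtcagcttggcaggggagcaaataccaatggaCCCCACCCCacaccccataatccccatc
Bicra: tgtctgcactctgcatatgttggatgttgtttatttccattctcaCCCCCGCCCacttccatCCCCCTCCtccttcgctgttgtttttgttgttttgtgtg
wts: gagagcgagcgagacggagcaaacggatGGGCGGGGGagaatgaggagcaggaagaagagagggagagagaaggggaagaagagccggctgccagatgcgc
eff: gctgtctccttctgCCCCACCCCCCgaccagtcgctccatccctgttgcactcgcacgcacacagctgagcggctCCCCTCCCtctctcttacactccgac
They cover chr3L:16488708-16488808 in an intron of CG33158, chrX:1232653-1232753 in CG3638, chr3L:8024407-8024507 in nmo, chr3R:29069714-29069814 in Bicra, chr3R:30794840-30794940 in wts and chr3R:14738029-14738129 in eff. Runs of C broken by an A, a T or a G recur in them, on the printed strand in CG3638, nmo, Bicra and eff, on the other strand in wts, and on both strands in CG33158. The gene nmo encodes the Nemo kinase, wts the Warts kinase of the Hippo pathway, and eff a ubiquitin-conjugating enzyme.

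The next 3 windows hold GAGAG, the core of the element bound by GAGA factor, and no C-rich stretch. Capitals mark GAGAG, or CTCTC where it is on the other strand, with overlapping copies joined.
Kr-h1: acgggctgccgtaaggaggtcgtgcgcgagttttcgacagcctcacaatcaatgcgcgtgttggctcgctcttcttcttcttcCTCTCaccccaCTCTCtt
osa: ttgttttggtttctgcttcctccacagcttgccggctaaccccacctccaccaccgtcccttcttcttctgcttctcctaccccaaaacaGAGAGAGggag
Alh: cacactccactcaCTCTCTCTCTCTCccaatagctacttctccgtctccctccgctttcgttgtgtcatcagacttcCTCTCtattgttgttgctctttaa
They cover chr2L:6088509-6088609, chr3R:17712960-17713060 and chr3R:7103542-7103642. These are the strongest distal intronic summits in Kr-h1, osa and Alh. The last 3 windows hold neither element and so have no capitals.
ImpL2: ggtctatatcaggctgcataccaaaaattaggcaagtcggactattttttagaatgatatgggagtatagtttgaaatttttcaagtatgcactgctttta
tna: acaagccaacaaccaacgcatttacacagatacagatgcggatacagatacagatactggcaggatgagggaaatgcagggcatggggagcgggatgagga
Tlk: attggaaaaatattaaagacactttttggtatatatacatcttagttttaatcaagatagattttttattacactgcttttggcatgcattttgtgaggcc
They cover chr3L:4230435-4230535, chr3L:10855491-10855591 and chrX:3742174-3742274. The windows in ImpL2 and Tlk are rich in A and T, whereas the window in tna has short runs of G.

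A C-rich stretch was the leading feature of the distal intronic summits. It was present in 34.5% of their windows (363 of 1053, 95% exact interval 31.6 to 37.4), against 5.89% of the flank windows (62 of 1053, 4.54 to 7.48). The difference passed the exact McNemar test (adjusted p = 8.14e-58). For scale, 3.79% of all 392060 windows of the same width in distal intronic sequence held such a stretch. Of the 41 motifs tested, 5 or 12.2% were more frequent at summits than in flanks, and 5 or 12.2% were less frequent. Beside the C-rich stretch, the more frequent ones were 4, all counted on both strands. CACCC, the box bound by Krüppel-like factors, was in 35.3% of summit windows and 13.0% of flank windows (exact McNemar adjusted p = 6.04e-33, 11.1% of all distal intronic windows). GGGCGG, a GC box, was in 13.0% and 3.32% (exact adjusted p = 1.04e-14, 3.17% of all windows). GAGAG was in 23.6% and 14.9% (exact adjusted p = 2.72e-06, 11.4% of all windows), and CACACA was in 17.9% and 12.6% (exact adjusted p = 0.00403, 9.36% of all windows). The CACACA difference did not pass with the limit at 5000 bp (exact adjusted p = 0.0851), with 1 summit per host gene (0.0517) or in windows of 25 bp to either side (0.431). CACCC and GGGCGG can overlap a C-rich stretch, so these counts are not separate from it.

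The motifs that were less frequent at distal intronic summits were rich in A and T. TATAAA, the TATA box, was in 5.60% of summit windows and 13.9% of flank windows (exact McNemar adjusted p = 2.46e-09). TAATTA, the site of many homeodomain proteins, was in 2.66% and 6.46% (exact adjusted p = 2.03e-04). AAAAAAAA was in 4.56% and 8.36% (exact adjusted p = 0.00171), TTTATG in 8.93% and 13.5% (0.00515) and CATATG in 2.37% and 4.94% (0.01). CATATG did not pass with replicate 1 left out, at −1.52 percentage points (exact adjusted p = 0.119), or with replicate 2 left out, at −1.62 (0.139). It also did not pass with the flank on the opposite side, at −1.71 (exact adjusted p = 0.0858). With flanks 700 bp away the calls of CATATG, at −0.760 (exact adjusted p = 0.524), and AAAAAAAA, at −1.80 (0.194), were lost. In windows of 25 bp to either side the calls of TTTATG (exact adjusted p = 0.788), TAATTA (0.146) and CATATG (0.591) were lost, and with 1 summit per host gene those of TTTATG (0.487) and CATATG (0.0618). Of all distal intronic windows, 12.8% held TATAAA, 7.39% TAATTA, 7.01% AAAAAAAA, 12.8% TTTATG and 2.98% CATATG. GC content moved with these motifs. Its median was 50.5% in summit windows (interquartile range 44.6 to 55.4) and 40.6% in flank windows (33.7 to 47.5), and it was higher at the summit for 818 of the 1053 (77.7%). In the 239 distal intronic summits whose summit and flank windows differed by at most 5 percentage points of GC, a comparison added after seeing the data, a C-rich stretch was in 25.9% of summit windows and 6.69% of flank windows (exact McNemar adjusted p = 2.83e-07). Median GC content in these 239 was still 48.5% at summits and 46.5% in flanks, and the tests had fewer pairs than over all 1053. In these 239 GAGAG, at 22.6% and 16.3%, did not pass (exact adjusted p = 0.499), and the C-rich stretch and CACCC were the 2 motifs more frequent at summits. None was less frequent there, and TATAAA and TTTATG turned to 0.837 and 0.418 percentage points higher at summits, with neither past the threshold.

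**Figure D1:**
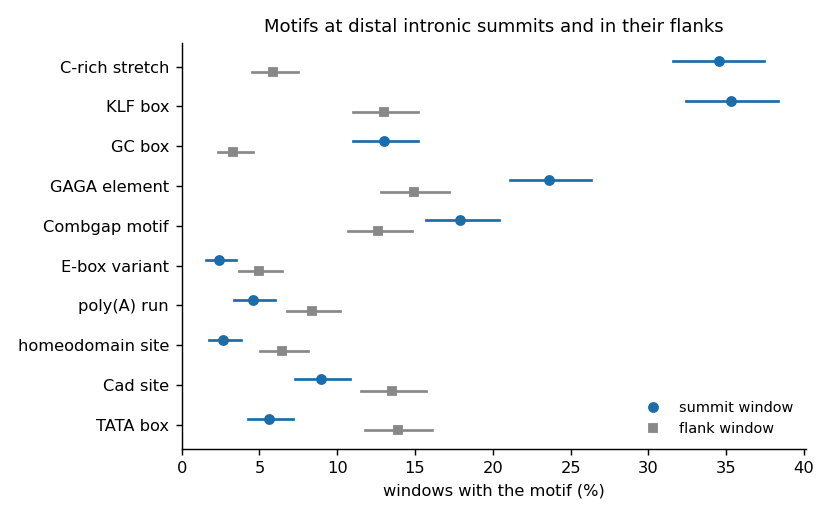
Share of windows with each of the 10 motifs that differed between distal intronic summits and their flanks, with the summit window as circles and the flank window as squares. Lines are 95% exact intervals, and the C-rich stretch shows the widest gap, at 34.5% of summit windows against 5.89% of flank windows.

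The 8-mers, counted in the same windows, gave a like picture without a motif list. Of 1880 8-mers tested, 328 or 17.4% were more frequent at distal intronic summits than in flanks, and 161 or 8.56% were less frequent (exact McNemar test, adjusted p under 0.05). The leading 8-mer was CCCCACCC (reverse complement GGGTGGGG), in 7.31% of summit windows and 0.855% of flank windows (exact adjusted p = 9.44e-12). It was in 0.433% of all distal intronic windows. CCCTCCCC was in 5.13% and 0.380% (exact adjusted p = 7.65e-10), and CCCCCCAC was in 4.18% and 0.0950% (exact adjusted p = 1.64e-09). Of the 20 leading 8-mers, 18 had at least 6 C or at least 6 G. The 1 with a GAGAG core was AGAGAGGG, in 3.13% and 0.0950% (exact adjusted p = 5.89e-07). The 8-mer most reduced at summits was ATTTAAAA, in 0.570% of summit windows and 4.08% of flank windows (exact adjusted p = 3.99e-06).

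The C-rich stretch was centred on the summit, whereas the GAGA element had no maximum there. In bins of 20 bp, 10.5% of distal intronic summits had the centre of a C-rich stretch just before the summit and 9.59% just after it, against 1.71% and 1.33% in the outermost bins, centred 290 bp away. For the GAGA element the shares were 6.93% and 7.12% beside the summit and 5.22% and 3.04% in the outermost bins. Its highest bin, at 7.31%, was centred 150 bp before the summit. In the 363 windows with a C-rich stretch, the nearest centre lay at a median of 20.5 bp from the summit, and 175 (48.2%) were within 20 bp. In 66 windows there were 2 or more separate stretches, and 15 windows held stretches on both strands. The longest stretch was 26 bp. The strand of C did not differ detectably from an even split by host gene strand: C was on the coding strand in 172 of 336 windows where both could be assigned (51.2%, 95% exact interval 45.7 to 56.7, two-sided exact binomial p = 0.703).

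**Figure D2:**
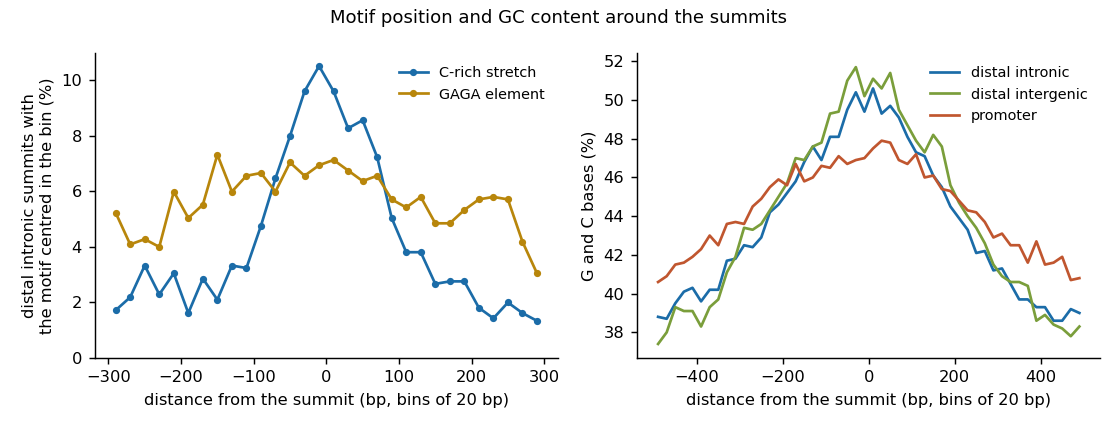
Left, share of the 1053 distal intronic summits with a C-rich stretch or a GAGA element centred in each bin of 20 bp around the summit. Right, share of G and C bases around distal intronic, distal intergenic and promoter summits. The C-rich profile peaks at 10.5% next to the summit, and GC content peaks there for all 3 classes.

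GAGAG was in 24.5% of distal intronic windows with a C-rich stretch and in 23.2% of those without, a difference that was not tested. A C-rich stretch without GAGAG was in 274 distal intronic windows (26.0%), GAGAG without a C-rich stretch in 160 (15.2%), both in 89 (8.45%) and neither in 530 (50.3%). The authors' signal value is the peak strength they deposited, here used only for ranks and levels within a list. Its median in the thresholded list was 212.0 for windows with a C-rich stretch alone, 208.0 with GAGAG alone, 222.7 with both and 185.5 with neither. Of the windows with a C-rich stretch, 58.7% lay above the median signal of all distal intronic summits (202.3), against 45.4% of those without (odds ratio 1.71, two-sided Fisher's exact adjusted p = 8.69e-05). The shares were 58.2% with GAGAG and 47.4% without (odds ratio 1.55, exact adjusted p = 0.00294). In 5 equal parts of the thresholded list from weak to strong, the C-rich share of distal intronic windows was 27.5%, 29.3%, 39.4%, 36.4% and 42.8%, and the GAGAG share was 16.2%, 23.4%, 24.0%, 22.2% and 35.5%. Even among the 166 strongest, a majority of windows lacked each element.

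The same elements were then compared with those at other summits. The C-rich stretch was more frequent at distal intronic summits than at the 1307 promoter summits, which lie within 500 bp of a start, at 34.5% against 24.7% (two-sided Fisher's exact adjusted p = 1.01e-05). It did not differ detectably from the 523 distal intergenic summits, over 2000 bp from a start and in no gene body, where 35.9% had one (95% exact interval 31.8 to 40.2, exact adjusted p = 0.823). Of 41 motifs, 4 or 9.76% were more frequent at distal intronic than at promoter summits. These were the C-rich stretch, CACCC with 35.3% against 27.2% (exact adjusted p = 4.17e-04), GGGCGG with 13.0% against 8.65% (0.00678) and CATTCC, a site of the factor Scalloped, with 8.55% against 4.97% (0.00622). Equally, 4 or 9.76% were less frequent. TATCGAT, the core of the DNA replication-related element, was in 0.475% of distal intronic and 3.90% of promoter windows (exact adjusted p = 4.41e-07), and CGATA, bound by BEAF-32, in 7.60% and 13.2% (3.32e-04). CGATA is part of TATCGAT on the other strand. GAGAG was in 23.6% and 30.8% (exact adjusted p = 0.00165) and TATAAA in 5.60% and 9.41% (0.00622). The GAGAG difference ended when promoter summits were limited to those within 100 bp of a start, at −0.779 percentage points (exact adjusted p = 0.985). With replicate 1 left out, 4 of these differences kept their sign and did not pass: TATCGAT at −1.27 percentage points (exact adjusted p = 0.0908), GGGCGG at 2.95 (0.105), CATTCC at 2.69 (0.0791) and TATAAA at −2.63 (0.0791). GAGAG did not pass with replicate 2 left out, at −3.43 (exact adjusted p = 0.257). In windows of 25 bp to either side the calls of the GAGA element, the GC box, the Scalloped site, the BEAF-32 core and the TATA box were lost, with exact adjusted p-values of 0.0844 to 0.205. With 1 distal intronic summit per host gene those of the GAGA element, the Scalloped site, the BEAF-32 core and the TATA box were lost, with 0.0701 to 0.185. The BEAF-32 core was at −2.17 percentage points in the narrower windows and −4.81 with 1 summit per host gene. The C-rich stretch and CACCC passed in both. In all distal intronic windows CATTCC was in 4.88%, TATCGAT in 1.14% and CGATA in 10.5%.

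Against the distal intergenic summits 0 motifs or 0% were more frequent at distal intronic summits and 1 or 2.44% was less frequent. That was CCGGAA, the core bound by Ets factors, in 2.28% of distal intronic and 5.93% of distal intergenic windows (two-sided Fisher's exact adjusted p = 0.00514, 2.39% of all distal intronic windows). It did not pass with replicate 1 left out, at −1.15 percentage points (exact adjusted p = 0.650), with the limit at 5000 bp (0.265) or in windows of 25 bp to either side (0.205). The median GC content was 50.5% at distal intronic, 51.5% at distal intergenic and 49.5% at promoter summits, and these were not tested against each other.

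In signal, distal intronic summits of the thresholded list were weaker than promoter summits and close to distal intergenic ones. In the thresholded list their signal value ran from 140.7 to 1525 with a median of 202.3 and an interquartile range of 163.0 to 273.6. The median was 194.1 at distal intergenic and 227.2 at promoter summits. Of the distal intronic summits 45.4% lay above the median of the whole list (209.6), against 56.1% of promoter summits, a difference of −10.7 percentage points (two-sided Fisher's exact adjusted p = 5.47e-07). Against distal intergenic summits, of which 44.2% did, the difference was 1.23 points (exact adjusted p = 0.667). The strongest 20% of the list held 15.8% of distal intronic and 25.6% of promoter summits (exact adjusted p = 1.02e-08). The gap to promoters was seen in each replicate's own list with differing size. Among summits with an entry in the replicate 1 list, 43.8% of distal intronic and 59.7% of promoter summits were above the median there (exact adjusted p = 8.56e-14). In replicate 2 it was 47.6% and 51.8% (exact adjusted p = 0.108), so the call rested on replicate 1 there, and the difference between the replicates was not tested. The lower quartile in replicate 2 was 76.02 at distal intronic and 73.79 at promoter summits. Of distal intergenic summits 37.1% were above the median in replicate 1, fewer than of distal intronic ones (exact adjusted p = 0.0135), and 47.3% in replicate 2 (0.956). Among the 3953 strongest entries of each replicate's own list, the difference from promoters was −12.3 points with replicate 2 left out and −10.3 points with replicate 1 left out, both past the threshold. The difference from distal intergenic summits was 5.61 points with replicate 2 left out (exact adjusted p = 0.0472). With the strongest summit alone kept in each host gene, which by construction favours the distal intronic side, the difference from promoters turned to 0.663 points (exact adjusted p = 0.828).

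**Figure D3:**
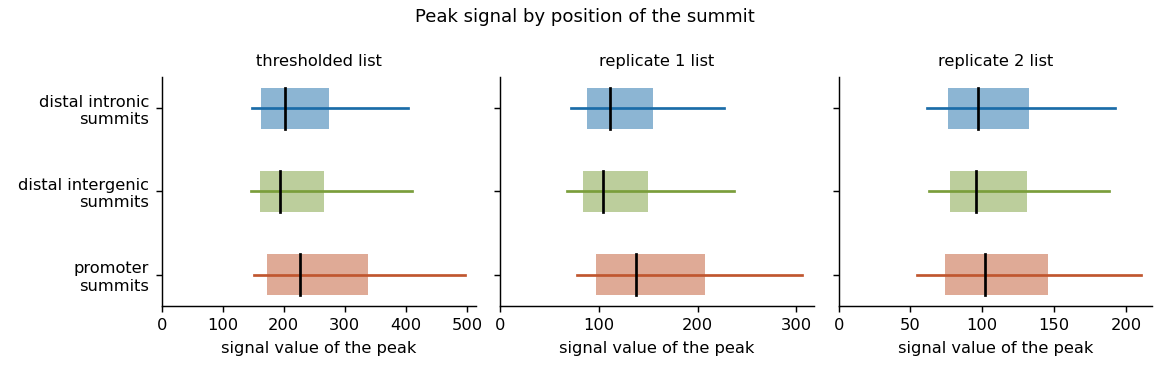
Signal value of distal intronic, distal intergenic and promoter summits in the thresholded list and in each replicate's own list. Boxes are the interquartile range, black bars the median and lines the 10th to 90th percentile. Distal intronic summits had medians of 202.3, 111.1 and 96.75 in the 3 lists, against 227.2, 137.7 and 102.0 at promoters.

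Because weaker peaks were more often distal intronic, the share of this class depended on how far down the list one reads. In 5 equal parts of the thresholded list from weak to strong it was 29.0%, 30.3%, 27.9%, 25.1% and 21.0%, with exact intervals of 25.8 to 32.2 in the weakest and 18.2 to 24.0 in the strongest. Among the 24568 weaker entries of the list from pooled replicates it was 35.5%. Of the 20 strongest peaks 3 were distal intronic, and of the 100 strongest 24. Sequence that meets the position rule covered 41.4 Mb, 30.9% of the 6 chromosome arms. It held 25.4 thresholded summits per Mb, against 31.4 per Mb in the rest of the arms. Sequence was counted whether or not peaks could be called in it. On 3L the last entry of any list ended at 24353079, while the last gene ended at 28012599.

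Both replicates held most of these summits. Of the 1053, 655 or 62.2% (95% exact interval 59.2 to 65.1) had an entry no more than 100 bp away within the top 3953 of both replicates, against 62.7% of distal intergenic and 60.6% of promoter summits (two-sided Fisher's exact adjusted p = 0.869 for both). A further 192 were in the set of replicate 1 alone and 181 in that of replicate 2 alone, and 25 were in neither. Replicate 2's set held 79.4% of distal intronic summits against 73.0% of promoter summits (exact adjusted p = 6.78e-04), and replicate 1's set 80.4% against 84.0% (0.0514). Both replicates went into the making of the thresholded list, which by itself favours summits they share. With all 30000 entries of each replicate, 968 or 91.9% were listed in both, against 88.8% of promoter and 95.2% of distal intergenic summits (exact adjusted p = 0.0156 for both). Across those 968 summits, which share their libraries, signal in the replicates had a rank correlation (Spearman's) of 0.513 and, as log2 values, a Pearson's r of 0.625.

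**Figure D4:**
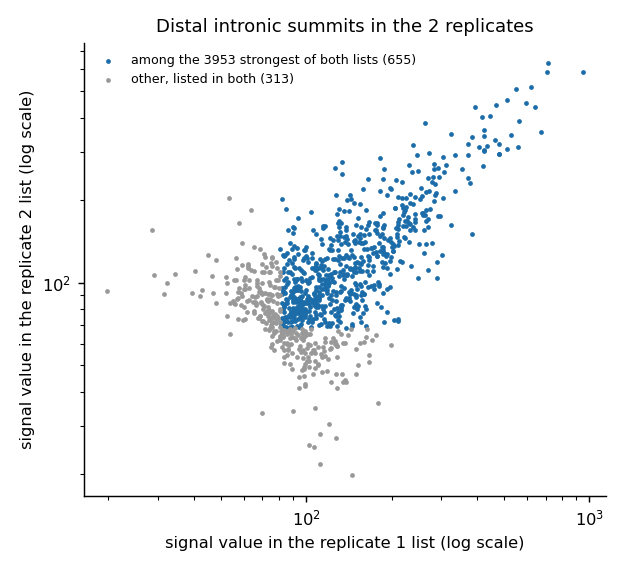
Signal value of the 968 distal intronic summits listed in both replicates, replicate 1 across and replicate 2 up, both on log scales. The 655 in blue were among the 3953 strongest entries of both replicates, and the 313 in grey were below that rank in at least 1 list.

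The strongest distal intronic summit lay in an intron of Kr-h1 (FBgn0266450), a zinc finger factor of the juvenile hormone response. On 2L it spanned 6088283 to 6088840, and its signal value of 1525 ranked 11 of 3953 in the thresholded list. Its signal was 946.8 in the replicate 1 list and 586.9 in the replicate 2 list, ranks 11 and 13. Its nearest start, 2853 bp away, belonged to CG45075 and not to Kr-h1. The next lay in osa (FBgn0261885), a subunit of the Brahma remodelling complex, at 3R 17712394 to 17713330 with a signal value of 1343. It had 716.7 in replicate 1 and 631.9 in replicate 2, ranks 22 and 8. The third was in ImpL2 (FBgn0001257), a secreted antagonist of insulin-like peptides, at 3L 4230176 to 4230942 with a signal value of 1296, 707.5 in replicate 1 and 587.0 in replicate 2. Alh, a chromatin protein with PHD fingers, followed at 3R 7103344 to 7103858 with 1137, 620.0 in replicate 1 and 517.1 in replicate 2. All 4 held ranks of 34 or better in both replicates.

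The remaining 16 of the 20 strongest had signal values from 770.3 to 1071. Dscam1, a cell adhesion molecule of axon guidance, had 1071. The corepressor gene sbb (scribbler) held 3 of the 20, with 1054, 1045 and 794.5, and the zinc finger gene jing held 2, with 946.5 and 779.9. The sbb summits with 1045 and 794.5 lie in the same interval. Chromatin genes among the 16 were tou with 889.4, simj, a subunit of the Mi-2 remodelling complex, with 853.1, tna with 801.3 and Bicra, of the Brahma complex, with 773.7. Kinase genes were Tlk with 794.4, nmo with 792.6 and wts with 770.3. The summit in CG33158, with 1015, lay 5108 bp from its nearest start, that of aos, which encodes a secreted inhibitor of the EGF receptor. CG3638 had 845.4, and a summit in both CG6191 and CG45088 had 973.6. Each of the 20 had an entry in the list of either replicate, with the lowest rank being 144 in replicate 1 and 131 in replicate 2. A C-rich stretch was in 8 of the 20 windows, GAGAG in 7 and either in 13.

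The summits lay in a limited number of genes. Of 4333 genes with sequence that meets the position rule, 486 or 11.2% hosted at least 1 distal intronic summit, and 467 of the 486 were protein-coding. There were 255 genes with 1 summit, 108 with 2, 123 with 3 or more and 13 with 10 or more. With genes in 5 equal parts by the amount of such sequence, 3.69%, 16.6% and 35.6% were hosts in the 3 parts with the most, in rising order. Genes of the other parts had at most 751 bp each, where few summits could fall, and held 1 host. Of the 1053 summits, 977 lay in 1 gene body and 76 in several overlapping ones, and 26 lay in non-coding genes alone.

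The gene sbb had the most, with 23 summits, or 49.2 per 100 kb of its distal intronic sequence, against 2.54 per 100 kb over all genes. All 23 lay in an intron of 49364 bp, with signal values from 150.1 to 1054 and a median of 326.6, and 17 were among the strongest of both replicates. The gene jing had 20 in an intron of 110416 bp, from 142.0 to 946.5 with a median of 285.9. The trithorax group gene tara had 16 (63.7 per 100 kb), from 150.1 to 727.7 with a median of 248.2. Its strongest, with 727.7, had no match in replicate 1 within 100 bp and a signal value of 336.3 in replicate 2. The gene tna, which interacts with the trithorax group, had 13 (58.3 per 100 kb), from 150.5 to 801.3. The non-coding lncRNA:CR44357, whose body spans other genes, had 13 over 127 kb. Antp, a Hox gene of the thorax, had 12 with a median of 219.9, and hth, a TALE homeobox gene, had 12 with a median of 195.9. Its 12 summits lay over 111 kb of the gene. SKIP had 11, and nmo had 10, as did Eip75B, a nuclear receptor gene of the ecdysone response.

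Short hosts could be denser. ImpL2 held 4 summits in an intron of 10196 bp, or 82.6 per 100 kb, with signal values of 1296, 582.2, 425.0 and 173.8. The forkhead gene jumu had 4 (66.9 per 100 kb), Socs36E, a JAK/STAT inhibitor, had 3 (65.0) and trx, the histone methyltransferase trithorax, had 5 (62.6). Summits that share an interval can count a broad peak more than once: the strongest 2 in ImpL2 lie in the same interval. So do summits of sbb (1045 and 794.5) and of jing, such as those with 668.6 and 354.6. The counts and densities per gene are therefore of summits, not of separate peaks. C-rich stretches were present in 7 of the 23 windows of sbb, 7 of 12 of hth and 2 of 16 of tara, while GAGAG was in 4, 4 and 6 of them.

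**Figure D5:**
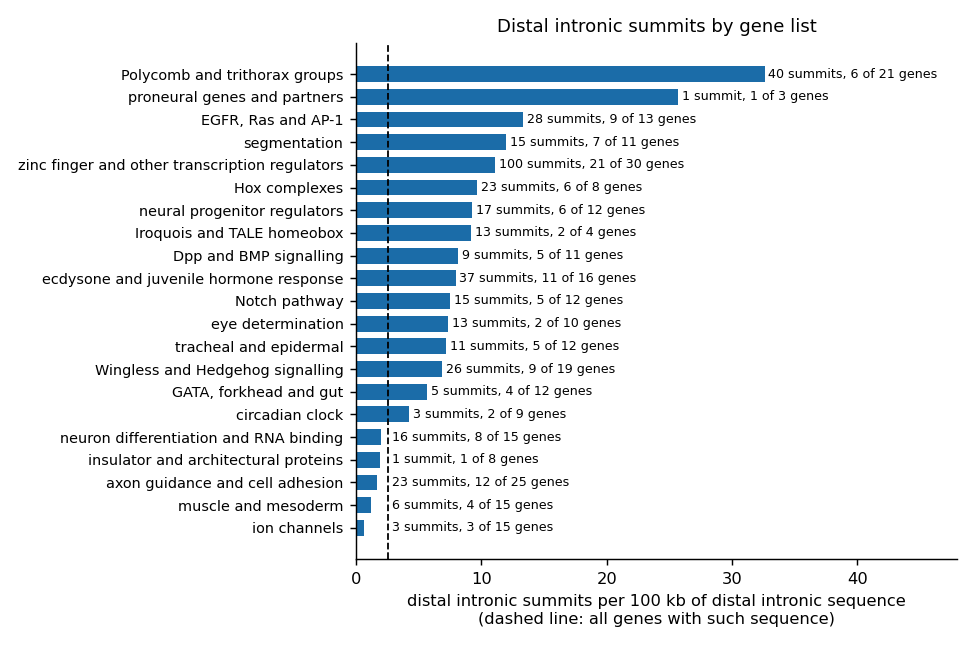
Distal intronic summits per 100 kb of distal intronic sequence in the genes of each list shown, with the dashed line at the level over all 4333 genes (2.54). Text beside each bar gives the number of summits and how many of the genes with such sequence host one, with the Polycomb and trithorax groups at the top and ion channels at the bottom.

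Gene lists were described by their hosts and by summits per 100 kb, beside 11.2% and 2.54 over all genes, with no test. The lists were not matched for length. With genes in 5 equal parts by distal intronic sequence, 35.6% were hosts in the part with the most (at least 12209 bp each). Density also fell with distance from a start, from 35.4 summits per Mb at 2 to 5 kb to 6.94 beyond 20 kb. The level over all genes leaves out neither sequence past the last list entry on 3L nor a gene with 1937525 bp of such sequence. The lists share members, such as Kr-h1, hth, psq and nkd. Chromatin regulators of the Polycomb and trithorax groups had 6 hosts of 21 genes but the most summits per 100 kb, 32.6, from 40 summits in osa, tara, Psc, psq, trx and Trl. The strongest were 1343 in osa, 727.7 in tara, 528.3 in Psc and 489.5 in psq. Of a mixed list of zinc finger and other transcription regulators, 21 of 30 were hosts, with 100 summits or 11.1 per 100 kb. It was led by the zinc finger genes Kr-h1, sbb and jing and by pdm3, a POU homeodomain gene (685.2 in pdm3), and its hosts pnt, crp, psq, bab1 and bab2 are not C2H2 genes either. l(3)neo38 itself was not a host. Ecdysone and juvenile hormone genes had 11 hosts of 16 and 37 summits (7.94 per 100 kb), among them Eip75B with 744.4, E23 with 479.4 and Hr3, a nuclear receptor gene, with 454.2.

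Patterning genes were above the level of all genes per 100 kb. Of the segmentation genes 7 of 11 were hosts (12 per 100 kb), with the strongest summits in inv at 403.4, nkd at 231.1, en, the segment polarity gene engrailed, at 227.8 and opa at 201.6. Of the Hox genes 6 of 8 were hosts (9.68 per 100 kb). Antp had a strongest signal value of 722.4, abd-A of 517.5, Ubx of 411.7 and pb of 289.0. The Antp summit at 722.4 had 423.1 in replicate 1 and 305.8 in replicate 2, and lay 7120 bp from an Antp start. Eye determination genes had 2 hosts of 10, hth at 475.2 and eya at 164.3, and Iroquois and TALE genes 2 of 4, with mirr at 141.2.

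Signalling lists were above the level of all genes per 100 kb. EGFR, Ras and AP-1 genes had 9 hosts of 13 and 28 summits (13.3 per 100 kb). Of these Raf, the MAP kinase kinase kinase of the pathway, held 10 in an intron of 43637 bp, led by 532.2, and sty and aos, both inhibitors of the pathway, had 397.5 and 305.5. Raf's next strongest, with 389.4, had no match in replicate 1. Wingless and Hedgehog genes had 9 of 19 (6.85 per 100 kb), led by dlp, a glypican, at 548.3 and fz, a Wingless receptor, at 416.7. Dpp and BMP genes had 5 of 11 (8.12), led by shn at 424.2 and sog at 396.9. Notch pathway genes had 5 of 12 (7.49), led by mam, a coactivator of Notch, at 305.6 and kuz at 278.0.

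Tissue lists spread widely. Neural progenitor regulators had 6 of 12 hosts (9.28 per 100 kb), with brat at 500.6, grh at 434.7, pros at 392.1 and pdm2 at 326.2. Of 3 proneural genes and partners with such sequence 1 was a host: emc, an antagonist of proneural proteins (155.0). This 1 summit in 3.89 kb gave the list 25.7 per 100 kb. Tracheal and epidermal genes had 5 of 12 (7.17), including sim at 423.4, and the GATA, forkhead and gut genes 4 of 12 (5.68), including bowl at 526.9 and pnr at 400.0. Lists of differentiated cells exceeded the 11.2% of hosts over all genes of any length, but at densities under that of all genes. Neuron differentiation and RNA-binding genes had 8 of 15 (1.99 per 100 kb), axon guidance and adhesion genes 12 of 25 (1.66) and muscle and mesoderm genes 4 of 15 (1.17), with Mef2 at 346.7. Ion channel genes had 3 of 15 (0.588), Ih at 219.7, SK at 211.2 and Shal at 202.0. Circadian clock genes had 2 of 9 (4.21) and insulator genes 1 of 8 (1.91), which was Trl, the gene of GAGA factor, at 404.3. Cytosolic ribosomal protein genes had 0 members with sequence of this kind.

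Host genes had a peak at their promoter more often than other genes with distal intronic sequence, though most hosts had none. Of the 486 hosts 207 or 42.6% held a thresholded summit within 500 bp of a start, against 461 of 3847 or 12% of the other genes with distal intronic sequence. With genes in 5 equal parts by such sequence, in the 3 parts with the most the shares were 53.1% of hosts and 14.6% of other genes, 45.1% and 15.4%, and 40.1% and 14.3%, in order of rising length. Among the hosts with no promoter summit were Antp, nmo, osa, trx and Raf. The nearest start belonged to a host gene for 666 summits (63.2%) and to another gene for the rest.

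Within their genes the summits lay in long introns, which the position rule itself favours. Intron length, first-intron share, place in the gene and spacing were not computed for all sequence that meets the rule. The containing intron, taken as the shortest where transcripts differ, had a median length of 14989 bp (interquartile range 7887 to 31704), and 637 summits (60.5%) lay in the first intron of some host transcript. Among the 977 in 1 gene body, 600 were nearer to the gene's start than to its end. The nearest transcript start was at a median of 5563 bp (3330 to 9916, at most 57052). Summits per Mb of such sequence were 35.4 at 2 to 5 kb from a start, 30.0 at 5 to 10 kb, 23 at 10 to 20 kb and 6.94 beyond 20 kb, from 464, 332, 197 and 60 summits. Their median signal values were 197.9, 202.3, 204.4 and 205.7, and Spearman's rank correlation of signal with distance was −0.00164 across the 1053 summits. Another distal intronic summit lay within 2000 bp for 388 (36.8%). Joined at gaps of up to 250 bp, they made 983 clusters, of which 69 held more than 1 summit.

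Signal values just inside and outside the 2000 bp limit were these. Just inside were summits nearest to starts of CG14634 at 2001 bp with a signal value of 183.7, CG30089 at 2001 bp with 224.4, RhoGAP18B at 2002 bp with 193.2 and Cph at 2003 bp with 316.8. Just outside were apt at 1980 bp with 427.0, bi at 1978 bp with 358.7, CG32639 at 1978 bp with 294.4 and Shrm at 1965 bp with 196.2.

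By chromosome arm, 2R held 221 of the 1053 summits, or 21.0% (95% exact interval 18.6 to 23.6) against 17.2% of the sequence that meets the position rule (two-sided exact binomial adjusted p = 0.00995). That is 31.0 summits per Mb, against 23.6 to 25.9 per Mb on 2L, 3L, 3R and X, none of which passed. The 23 summits of sbb and the 20 of jing are on this arm, and the test takes each summit as independent. No setting with 1 summit per host gene or per cluster was run for the arms. With the distance limit at 5000 bp, the 2R share exceeded its share of sequence by 0.574 percentage points (exact adjusted p = 0.958). The small chromosome 4 held 4 summits, 0.380% against 1.08% of the sequence (exact adjusted p = 0.0712). It passed in the list of either replicate alone, at −0.772 percentage points with replicate 2 left out (exact adjusted p = 0.0378) and −0.807 with replicate 1 left out (0.0153).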

How the data were processed

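ChIP-seq peak lists of 2 biological replicates (1 group) were analysed on build dm6. Sonication gave fragments of 200 to 800 bp, per the labels. According to the deposited descriptions, each replicate list came from that replicate's alignments and a control, a pooled list from both alignments, and the thresholded list from these by the irreproducible discovery rate procedure. What caller and threshold were applied, and how the deposited signal value, a score, was normalized, is not stated in the labels, so it was compared within a list alone. Without read counts sequencing depth is unknown, and intervals cover counting error over peaks only. Peaks are not independent replicates, and the p-values are over peaks, not over embryo collections.

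Summits were placed with the Ensembl 115 annotation on 6 arms, and sequence came from the RefSeq Release 6 genome, whose arm lengths hold every list and gene end. Windows of 101 bp were compared with flanks centred 350 bp away, on a seeded side. Motif and 8-mer shares (8-mers in at least 1% of windows) were compared by exact McNemar tests, shares between classes by two-sided Fisher's exact tests and arms by exact binomial tests. P-values were adjusted by Benjamini-Hochberg over each family, at 0.05. Shares have 95% Clopper-Pearson intervals. Python 3.11.15, numpy 2.4.6, scipy 1.17.1, pandas 2.3.3 and matplotlib 3.10.9 were used. The 8-mer test was tried on genome windows at random distal intronic places, with and without a planted word. The McNemar count and the C-rich finder were tried on short made-up inputs, and the other steps were not tested in this way.

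The position class, the 23 gene lists and the 41 motifs were chosen with earlier results of these data known. Of the list symbols, 409 matched directly, 11 by a synonym and 4 had no match. Genes named are the hosts of the 20 strongest summits, the 10 hosts with the most summits, the 5 densest with at least 3, up to 4 hosts per list by strongest summit, and the summits next to the 2000 bp limit. Of the lists, 1 is not reported here. Lists on dm3 were not analysed here.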

Additional observations from a re-analysis of the deposited data

How the results depend on the processing

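Of 325 repeats of a result under another setting, 238 kept the direction and the side of the threshold, or stayed within the stated range. The distal intronic share was 34.8% with a limit of 1000 bp, 14.9% with 5000 bp, 24.2% among the peaks above the median signal and 34.0% over all pooled entries, and it ranged from 25% to 28.2% with a replicate left out. Hosts made up 8.99% of genes with a limit of 1000 bp, 15.9% with 5000 bp and 6.32% among the peaks above the median signal. The signal difference from promoter summits kept its call in 7 of 8 settings and was 0.663 percentage points with 1 distal intronic summit per host gene, the strongest. The difference from distal intergenic summits was 12.6 points there, and from 0.340 to 5.61 points with a replicate left out. With all 30000 entries of each replicate, the share in both replicates differed by −3.29 points from distal intergenic and 3.17 from promoter summits.

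The C-rich stretch kept its calls against flanks and against promoter summits under every setting run for them, including windows of 25 and 100 bp to either side, flanks 700 bp away or on the opposite side, and definitions of 8 or at least 6 C. Counts moved more. More frequent 8-mers numbered 102 with 25 bp to either side, and less frequent ones 38 there and 300 with 100 bp. Motifs more frequent at summits than flanks numbered 8 with a limit of 1000 bp, 11 with 100 bp to either side, 9 with the opposite flank, 2 with GC within 5 points, and from 6 to 8 with a replicate left out. Motifs less frequent numbered 3 among the peaks above the median signal, 2 with 25 bp, 8 with 100 bp, 3 with flanks 700 bp away and 0 with GC within 5 points. TATAAA turned to 0.837 points and TTTATG to 0.418 points with GC within 5 points. Motifs that differed from promoter summits numbered 5 among the peaks above the median signal, 4 with 1 summit per host gene, 3 with 25 bp and 13 with 100 bp. Those that differed from distal intergenic summits numbered 2 with a limit of 1000 bp, 0 with 5000 bp, 0 with 25 bp and 6 with 100 bp. The excess on 2R was 0.574 points with a limit of 5000 bp. Of 197 repeats for single motifs or arms, 146 kept their call and 46 kept direction and did not pass. The cause of these changes was not tested, and wider windows hold more matches by construction. No paired analysis was possible because there is 1 group. The unknown depth limits what the weaker entries can show.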

Other observations

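The 530 distal intronic windows with neither a C-rich stretch of at least 7 C in 8 nor GAGAG were looked at after their values were seen, as counts with no test. The 8-mers counted were the 40 that led over all 1053 windows, so an excess over flanks was part of their choice. CCCATTCC (reverse complement GGAATGGG) was in 23 of these summit windows and 2 of their flank windows, CCACTCCA in 20 and 1, and CCCCTGCC in 20 and 1. CCCATTCC holds CATTCC, the Scalloped site that was more frequent at distal intronic than at promoter summits. Over all 1053, CATTCC was in 8.55% of summit windows and 5.98% of flank windows, which did not pass (exact McNemar adjusted p = 0.0918). At distal intergenic summits it was in 10.3%, and that difference did not pass either (two-sided Fisher's exact adjusted p = 0.588).

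In the 235 distal intronic summits whose GC content was no higher than that of their flank, also picked after seeing the data, a C-rich stretch was in 15.3% of summit windows and 14.9% of flank windows. Picking by GC acts on the C and G counted here, and by construction favours C-rich flanks over C-rich summits. Over all 1053 the C-rich shares were 34.5% and 5.89%. In the 235, GAGAG was in 20.4% of summit windows and 21.3% of flank windows. The median GC content of these 235 summits was 40.6%, and that of their flanks was 49.5%.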
